A study of Mus musculus with 81 samples.

Results

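Interferon-stimulated genes are the genes whose transcription follows when interferon reaches a cell. Here 35 of them, chosen by their symbols with earlier results of these data known, were followed through the RNA-seq and ChIP-seq of mouse hippocampal area CA1. The study asked what the histone variants macroH2A1 (mH2A1, encoded by H2afy) and macroH2A2 (mH2A2, encoded by H2afy2) do in this region, which is needed for contextual memory. The raw count table of the depletion experiment lists all 35 members among its 55536 gene rows, that of intact mice all 35 of 24500, and that of the training experiment 34 of 20801, without Mx1. The members were grouped by role as transcription factors (3), the IFIT family (4), the OAS family (5), sensors of nucleic acids (4), membrane and nucleotide effectors (7), the ISG15 system (3) and others (9).

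All mice were male C57BL/6J mice of about 9 to 12 weeks of age. In the depletion experiment, AAV-DJ vectors carrying shRNA against H2afy (shH2afy, 3 mice), shRNA against H2afy2 (shH2afy2, 3 mice) or a scrambled shRNA (shScr, 3 mice) were injected into dorsal CA1, so every mouse of this experiment, controls included, received a virus. The shRNA was driven by the U6 promoter, beside GFP under the CMV promoter, neither of which restricts it to a cell type. The paper gives a higher titre for the shH2afy2 vector than for the shH2afy vector and none for the shScr vector. Vector dose and shRNA target thus cannot be told apart. The training experiment held 12 libraries from mice injected with shH2afy or shScr, trained with contextual fear conditioning (3 foot shocks, tissue 1 h later) or left in the home cage as untrained controls, 3 mice in each group. Another set held 2 trained and 3 untrained mice with no virus, called intact here. The domains of mH2A1 and mH2A2 came from 30 ChIP-seq libraries of trained and untrained mice without virus, taken 30 min, 1 h or 6 h after training.

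Interferons alpha and beta bind the receptor Ifnar1 with Ifnar2, whose kinases Jak1 and Tyk2 phosphorylate Stat2 among other factors. Stat2 and Irf9 are parts of the factor ISGF3, which binds the interferon-stimulated response element in the promoters of many of the genes followed here. Interferon gamma signals through its own receptor, and genes that respond to it often carry the gamma-activated sequence. In the brain, microglia, astrocytes, neurons and vessels can all respond, and the induced proteins detect viral RNA, block its translation or trap budding virus. MacroH2A replaces H2A in nucleosomes, carries a large globular domain, and lies in broad domains of chromatin that often hold silent genes.

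The response element itself was looked for in the RefSeq promoters of the members (build GRCm38.p6, 250 bases before to 50 after each start), because the choice of members did not use sequence. A promoter was matched for 26 of the 35 members. Its core, GAAANNGAAA on either strand, lay in 13 of these 26 members (50%), against 3.99% of 27025 genes. Cores upstream of the start are shown for 8 members, each with 10 bases on either side, 5′ to 3′ along the strand of the gene. Capitals mark bases of a core or of its reverse complement. They are shown since they are the letters behind that count.

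Isg15 (chr4:156200865-156200906, minus strand): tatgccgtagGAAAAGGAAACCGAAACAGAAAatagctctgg

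Ifit1 (chr19:34640775-34640823, plus strand): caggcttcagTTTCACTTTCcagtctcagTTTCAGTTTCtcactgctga

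Ifit3 (chr19:34583363-34583426, plus strand): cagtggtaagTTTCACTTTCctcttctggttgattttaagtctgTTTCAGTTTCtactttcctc

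Ifit3b (chr19:34607759-34607822, plus strand): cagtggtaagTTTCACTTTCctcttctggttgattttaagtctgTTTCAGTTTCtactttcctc

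Bst2 (chr8:71537577-71537612, minus strand): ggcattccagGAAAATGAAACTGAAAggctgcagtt

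Oas3 (chr5:120777715-120777744, minus strand): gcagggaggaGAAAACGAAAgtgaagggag

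Rsad2 (chr12:26456553-26456582, minus strand): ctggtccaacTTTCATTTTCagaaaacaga

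Stat2 (chr10:128270266-128270295, plus strand): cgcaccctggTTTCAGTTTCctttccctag

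In Isg15, 3 cores overlap one another, centred 73, 67 and 61 bases before the start. Those of Ifit1 are centred 99 and 80 bases before the start, and that of Stat2 lies farthest upstream of those shown, 217 bases before it. Ifit3 and Ifit3b carry the same 64-base run, and as close copies of each other they could share reads. The longer form with 2 more bases, GAAANNGAAACT, lay in 7 members (26.9%), against 0.303% of all genes, and every such match also counts as a core. The gamma-activated sequence, TTCNNNGAA, lay in 6 members (23.1%), against 9.55% of all genes. A match is a run of letters and not a measured binding site. The members without a core in this window were Cmpk2, Herc6, Ifi35, Ifi44, Ifit2, Irf7, Irf9, Lgals3bp, Oasl1, Oasl2, Samd9l, Sp100 and Xaf1. For longer context, the 250 bases before the start are given for Isg15, which has cores, and for Oasl2, which has none and was nevertheless among the members with the largest differences in RNA.

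Isg15 (chr4:156200819-156201068, minus strand): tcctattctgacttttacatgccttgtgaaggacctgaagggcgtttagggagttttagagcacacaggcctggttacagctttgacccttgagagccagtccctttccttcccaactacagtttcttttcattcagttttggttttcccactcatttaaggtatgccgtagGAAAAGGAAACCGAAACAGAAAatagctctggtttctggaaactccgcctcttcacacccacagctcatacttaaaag

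Oasl2 (chr5:114896684-114896933, plus strand): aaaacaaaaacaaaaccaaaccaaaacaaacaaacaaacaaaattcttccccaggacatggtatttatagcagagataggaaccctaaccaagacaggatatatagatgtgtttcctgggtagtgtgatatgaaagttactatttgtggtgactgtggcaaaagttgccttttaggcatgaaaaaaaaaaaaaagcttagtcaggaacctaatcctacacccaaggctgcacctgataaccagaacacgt

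Several members are neighbours in the mm10 genome. The GENCODE annotation places the 4 Ifit genes at chr19:34550694-34650009, Oas2, Oas3 and Oas1a at chr5:120730333-120907521, Oasl2 with Oasl1 at chr5:114896936-114937915, Rsad2 with Cmpk2 at chr12:26442746-26479837 and Mx1 with Mx2 at chr16:97447035-97560900. Members of a cluster share a stretch of chromatin, and Ifit3 with Ifit3b, Oas1a with its close relatives and Trim30a with its own may share reads, so their single values are less certain.

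Assigned counts ranged from 13.4 to 15.9 M per library in shH2afy, 15.4 to 18.8 M in shH2afy2 and 9.95 to 17 M in shScr of the depletion experiment, from 81.4 to 92.2 M in the training experiment, and from 48.8 to 58.7 M in intact mice. In the depletion experiment each targeted RNA was lower in the mice with its shRNA, with H2afy at 42.5 ± 2.96 CPM (counts per 1 M counted, TMM-scaled) in shH2afy and 57.4 ± 4.07 CPM in shScr (SD, n = 3 each, log2 fold change -0.37, adjusted p = 0.031), and H2afy2 at 9.64 ± 3.15 CPM in shH2afy2 and 18.7 ± 0.355 CPM in shScr (-0.95, adjusted p = 0.0907), neither of which passed the threshold for a call. In the training experiment the targeted RNA, listed as Macroh2a1, was not lower under the shH2afy label. It stood at 88.0 ± 0.846 CPM in untrained libraries labelled shH2afy and at 80.6 ± 2.02 CPM in untrained shScr libraries (SD, n = 3 each, log2 fold change 0.13, adjusted p = 0.0868), so those groups are called by their labels only. Marker genes of thalamus summed to 1070 to 1420 CPM in that experiment and to 58.7 to 147 CPM in the depletion experiment, which was counted and scaled separately.

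Nearly all interferon-stimulated genes were far higher in CA1 of shH2afy mice than of shScr mice. At the thresholds of the study for depletion (adjusted p under 0.01 by edgeR's quasi-likelihood test, fold change above 2), 34 of the 35 members were called higher and 0 lower, where 10.5% of the 16179 genes tested were called higher. The median log2 fold change of the members was 5.02 and that of all genes 0.01. Because the members were chosen with earlier results of these data known, these counts are no independent test of the list. In all 35 members every shH2afy mouse lay above every shScr mouse, which was so for 24.1% of genes tested. Of these members, 23 passed the filter on low counts through the shScr libraries alone, and 22 of them were called, with a median of 4.58. The other 12 (Oasl1, Oas1a, Oas2, Oas3, Isg15, Usp18, Ifi27l2a, Ifi44, Dhx58, Mx1, Mx2 and Zbp1) reached it only through the shH2afy libraries and so had to differ. In tissue RNA, more cells of a responding type and more RNA per cell cannot be told apart.

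The transcription factors of the pathway rose together, all 3 being called, with a median log2 fold change of 3.30. Irf7, the factor that amplifies production of interferon alpha, had 138, 143 and 79.6 CPM in shH2afy replicates 1 to 3, against 1.18, 0.811 and 1.49 CPM in shScr. The lowest shH2afy mouse thus lay far above the highest shScr mouse, and the fitted log2 fold change was 6.81 (SE 0.34, adjusted p = 5.88e-05). Stat2, a partner of Irf9 in ISGF3, was already well expressed in controls, with 147, 139 and 96.1 CPM in shH2afy and 25.5, 25.8 and 17.3 CPM in shScr. Its log2 fold change of 2.54 (SE 0.22, adjusted p = 0.000327) was the second smallest of all members. Irf9, the part of ISGF3 that contacts DNA, averaged 75.8 ± 20.6 CPM in shH2afy and 8.04 ± 0.889 CPM in shScr (SD, n = 3 each), a log2 fold change of 3.30.

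The IFIT proteins, which bind viral RNA and hinder its translation, rose in all 4 genes (median 4.54). Ifit1 stood at 148, 124 and 89.4 CPM in shH2afy mice and at 2.49, 2.06 and 1.81 CPM in shScr mice (log2 fold change 5.87, SE 0.25, adjusted p = 4.01e-05). Ifit3 reached 175, 190 and 125 CPM in shH2afy and 6.51, 4.49 and 5.12 CPM in shScr, with 4.99 on the log2 scale (SE 0.23, adjusted p = 5.62e-05). Ifit2, whose control level was the highest of the family, rose least within it, with 107, 113 and 56.7 CPM in shH2afy against 16.9, 12.8 and 9.28 CPM in shScr (log2 fold change 2.88, SE 0.32).

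All 5 genes of the OAS family were called, with a median of 6.75, but Oasl1, Oas1a, Oas2 and Oas3 are among the members that reached the filter only through the shH2afy libraries. The Oas enzymes sense double-stranded RNA and start its degradation, and the Oasl proteins are their relatives. Oasl2 had 259, 258 and 157 CPM in shH2afy mice and 2.49, 1.75 and 2.35 CPM in shScr mice. This was a log2 fold change of 6.75 (SE 0.29, adjusted p = 4.01e-05). Oas1a was at 28.1, 29.3 and 18.3 CPM in shH2afy and at 0.416, 0.249 and 0.533 CPM in shScr, where all libraries together held 15 counts. Oasl1 and Oas3 rested on 6 counts each in shScr, so the size of their differences is loosely fixed from the control side.

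All 4 sensors of nucleic acids rose, though Zbp1 and Dhx58 reached the filter only through the shH2afy libraries. Zbp1, a sensor of Z-form nucleic acid that can start cell death, had the largest difference of all members, with 47, 47.7 and 16.7 CPM in shH2afy against 0.0693, 0.0624 and 0.533 CPM in shScr (log2 fold change 7.70, SE 0.72, adjusted p = 0.000422). Its shScr level rested on 7 counts. Ifih1, the sensor of long double-stranded RNA also called MDA5, had 54.2, 52.2 and 35.5 CPM in shH2afy mice and 3.88, 3.62 and 2.99 CPM in shScr mice (log2 fold change 3.81, SE 0.22, adjusted p = 9.33e-05). Dhx58, which modulates that sensor, and Eif2ak2, the kinase PKR that stops translation, had log2 fold changes of 4.85 and 3.50.

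Among membrane and nucleotide effectors, 6 of 7 were called, of which Mx1 and Mx2 reached the filter only through the shH2afy libraries. Rsad2, also named viperin, makes a chain-terminating nucleotide, and its level was 65.7, 55.3 and 37.8 CPM in shH2afy against 0.901, 0.936 and 0.854 CPM in shScr (log2 fold change 5.93, SE 0.28, adjusted p = 5.88e-05). Ifitm3, which blocks entry of virus through endosomes, had 138, 136 and 72.8 CPM in shH2afy and 5.75, 3.31 and 6.4 CPM in shScr (4.58, SE 0.35). Mx1, named for a GTPase, was at 21.6, 20.9 and 18.4 CPM in shH2afy and at 0.208, 0.0624 and 0 CPM in shScr, 4 counts in all. Whether a working protein was made was not measured. Its fitted log2 fold change of 7.61 (SE 0.39, adjusted p = 6.13e-05) was the second largest. The exception was Cmpk2, a mitochondrial nucleotide kinase next to Rsad2 on chromosome 12, with 49.7, 54.8 and 36.2 CPM in shH2afy against 21.8, 28.8 and 24.2 CPM in shScr. Its groups did not overlap, but its log2 fold change of 0.98 (SE 0.18, adjusted p = 0.00663) stayed below the fold threshold.

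Isg15 encodes the ubiquitin-like protein that is attached to other proteins during the response, Usp18 removes it, and Herc6 attaches it in mice. All 3 rose, with a median of 5.69, but Isg15 and Usp18 reached the filter only through the shH2afy libraries. Isg15 had 93.1, 92.7 and 57.4 CPM in shH2afy mice and 0.485, 0.998 and 1.07 CPM in shScr mice (log2 fold change 6.66, SE 0.33). Usp18 had 48.6, 50.3 and 26.8 CPM in shH2afy and 0.762, 1.06 and 0.640 CPM in shScr (5.69, SE 0.34). Of the other 9 members, all called, Ifi27l2a, a small interferon-induced membrane protein, was at 38.0, 47.3 and 37.1 CPM in shH2afy and at 0.277, 0.187 and 0.533 CPM in shScr, a log2 fold change of 7.09 (SE 0.28, adjusted p = 4.01e-05). Ifi27l2a too reached the filter only through the shH2afy libraries, with 12 counts in shScr. Lgals3bp, a secreted galectin-binding glycoprotein, had 561, 630 and 271 CPM in shH2afy mice, against 15.0, 7.98 and 10.1 CPM in shScr (5.53, SE 0.41).

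**Figure D1:**
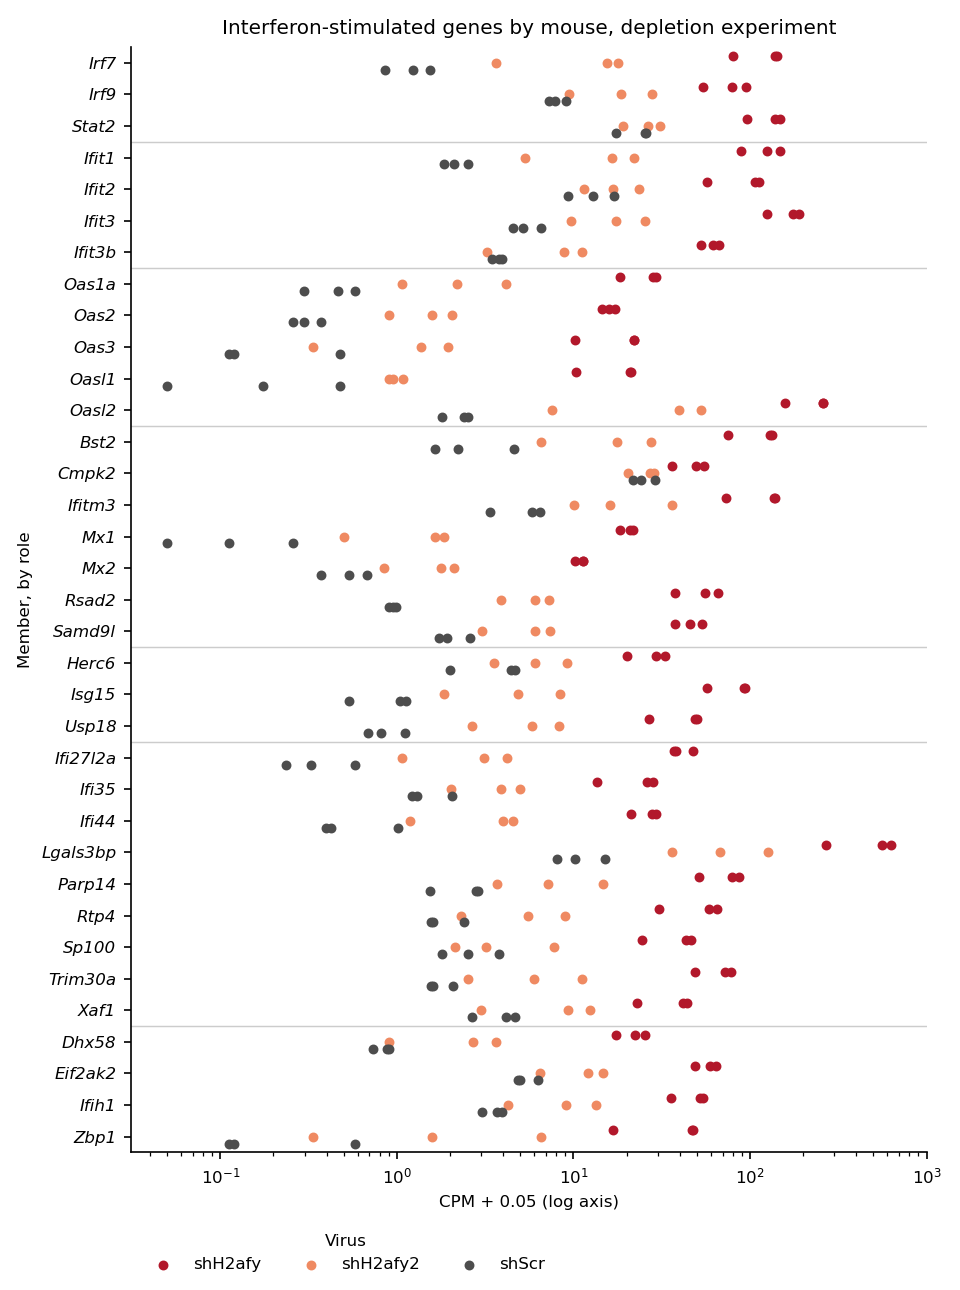
CPM of each member (rows, by role) in each mouse of the depletion experiment on a log axis, with a small constant added so that 0 can be drawn. Each point is 1 mouse of shH2afy, shH2afy2 or shScr, 3 mice in each group, and in all 35 members the shH2afy points lie to the right of the shScr points.

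Levels can be set beside one another only per length, so CPM were divided by the exon length of each gene in kb. On that scale Lgals3bp (median 197 CPM per kb, range 95.2 to 221), Ifitm3 (200, 107 to 204), Bst2 (144, 82.9 to 149), which tethers budding virus, and Isg15 (123, 76.0 to 123) led in shH2afy mice, and their ranges over 3 mice overlap. In shScr mice Ifitm3 (8.48, range 4.88 to 9.44), Cmpk2 (5.82, 5.24 to 6.91), Lgals3bp (3.56, 2.80 to 5.26) and Stat2 (4.30, 2.92 to 4.35) had the highest levels per length.

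The mice of a group moved together over the members. In 34 of 35 members shH2afy replicate 3 was the lowest of its group, and the members' CPM summed to 3000, 3060 and 1800 in shH2afy replicates 1 to 3, 417, 565 and 190 in shH2afy2 mice and 149, 132 and 129 in shScr mice. In both groups given a targeting shRNA, but not in the controls, mice kept this order in marker genes of microglia and macrophages. All 10 of them were called higher in shH2afy than in shScr (median log2 fold change 3.02), and their summed CPM were 3550, 3930 and 2060 in shH2afy mice, 512, 962 and 495 in shH2afy2 mice and 505, 325 and 409 in shScr mice. The 5 astrocyte markers summed to 4750 to 5320 CPM in shH2afy, 1320 to 1830 in shH2afy2 and 1180 to 1640 in shScr. Markers of monocytes and neutrophils (6 genes) spanned 142 to 809, 14.4 to 119 and 3.55 to 17.9 CPM in shH2afy, shH2afy2 and shScr mice, and those of B and plasma cells (7 genes) 32.8 to 1790, 12.3 to 396 and 9.92 to 27.4 CPM. The 9 markers of T and NK cells summed to 8.17 to 87.2 CPM in shH2afy, 0.906 to 18.1 in shH2afy2 and 0.873 to 22.2 in shScr, where Cd3d and Gzmb were at 0. The 6 markers of CA1 pyramidal neurons were at 2690 to 4690 CPM in shH2afy, 5060 to 7110 in shH2afy2 and 5490 to 7700 in shScr. By the microglial markers shH2afy2 replicates 1 and 3 (512 and 495 CPM) stood near shScr replicate 1 (505 CPM), the highest control. Members of the same mice summed to 417 and 190 CPM, against 149 CPM. In shH2afy replicate 3 the members summed to 1800 CPM. Its markers of B and plasma cells (32.8 CPM) and of monocytes and neutrophils (142 CPM) lay above every control. Those of T and NK cells (8.17 CPM) lay below shScr replicate 3 (22.2 CPM) and above shScr replicates 1 and 2 (1.32 and 0.873 CPM). The part of any of these cell types in the members' values was not tested.

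The mice that received shRNA against H2afy2 had members between the other groups. All 32 members tested in shH2afy2 against shScr had positive log2 fold changes, with a median of 1.78 against -0.01 over all genes, but 0 were called by edgeR, where 0% of 15609 genes were called higher. Of the 32, 26 had an unadjusted p under 0.05, as did 3238 of all genes tested, and 22 did not overlap between the groups, which was so for 13.3% of genes tested. DESeq2 called 15 members higher (0.544% of 16169 genes). These were Oasl2, Irf7, Ifi27l2a, Lgals3bp, Ifit1, Usp18, Rsad2, Oas1a, Bst2, Ifi44, Isg15, Ifitm3, Trim30a, Parp14 and Ifit3. Without any filter on low counts, edgeR called 23 members among 228 of 35433 genes. Of the members, 24 passed the filter through the shScr libraries alone (median 1.51, 14 without overlap), and 8 only through the shH2afy2 libraries. These 8 were Oasl1, Oas1a, Oas2, Isg15, Usp18, Ifi27l2a, Ifi44 and Mx2, which so had to differ. Oas3, Mx1 and Zbp1 did not pass the edgeR filter, while DESeq2 tested all 35 members.

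The largest differences were those of Oasl2, Irf7 and Ifi27l2a. Oasl2 had 52.9, 39.4 and 7.53 CPM in shH2afy2 mice, all above the shScr mice, a log2 fold change of 3.93 (SE 0.70, adjusted p = 0.0739 by edgeR and 8.13e-05 by DESeq2). Irf7 stood at 15.5, 17.8 and 3.57 CPM in shH2afy2, and its log2 fold change was 3.44 (SE 0.63, adjusted p = 0.0739). Ifi27l2a, tested only through the shH2afy2 libraries, had 3.06, 4.17 and 1.02 CPM in shH2afy2 (3.12, SE 0.65, adjusted p = 0.0829). In each of these genes replicate 3 lay well below the other mice of the group, though still above every control.

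At the other end were Cmpk2, Stat2 and Ifit2, whose groups overlapped. Cmpk2 had 27.0, 28.5 and 20.2 CPM in shH2afy2 (log2 fold change 0.02, SE 0.17). Stat2 was at 26.5, 31.0 and 19.0 CPM in shH2afy2 (0.16, SE 0.22), and Ifit2 at 16.6, 23.4 and 11.5 CPM in shH2afy2 (0.40, SE 0.30). These are the members with high levels in controls, which also had the smallest differences in shH2afy mice.

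Replicate 3 was also the lowest shH2afy2 mouse among the antiviral effectors. Ifit1 measured 22.1, 16.4 and 5.26 CPM in shH2afy2 mice, Ifit3 17.4, 25.3 and 9.62 CPM and Rsad2 7.22, 6.01 and 3.85 CPM. Isg15 had 8.33, 4.80 and 1.81 CPM, Usp18 5.76, 8.28 and 2.60 CPM and Oas1a 2.15, 4.11 and 1.02 CPM in the same mice. All 3 mice lay above every control in these 6 genes, of which Isg15, Usp18 and Oas1a passed the filter only through the shH2afy2 libraries. Ifitm3 was at 16.0, 36.3 and 10.0 CPM, Ifih1 at 9.03, 13.3 and 4.19 CPM and Lgals3bp at 67.9, 127 and 35.9 CPM in shH2afy2. Zbp1, with 1.53, 6.54 and 0.283 CPM, overlapped the controls.

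Over the whole list, shH2afy2 replicate 3 was lowest of its group in 35 of 35 members and replicate 2 highest in 29. Replicate 2 was also the shH2afy2 mouse with the most microglial (962 CPM), B and plasma (396 CPM) and T and NK (18.1 CPM) markers, and the part of these cells was not tested. Without shH2afy2 replicate 3, edgeR called 1 member among 2 genes called higher, and DESeq2 called 23 members among 114 genes. Without replicate 2, DESeq2 called 6 members among 32 genes, and without replicate 1 it called 9 among 105. Leaving out shScr replicate 1 or 2 left 9 members among 90 genes or 8 among 77 by DESeq2. Both shRNA comparisons share the shScr libraries, so their fold changes are set side by side and not correlated.

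**Figure D2:**
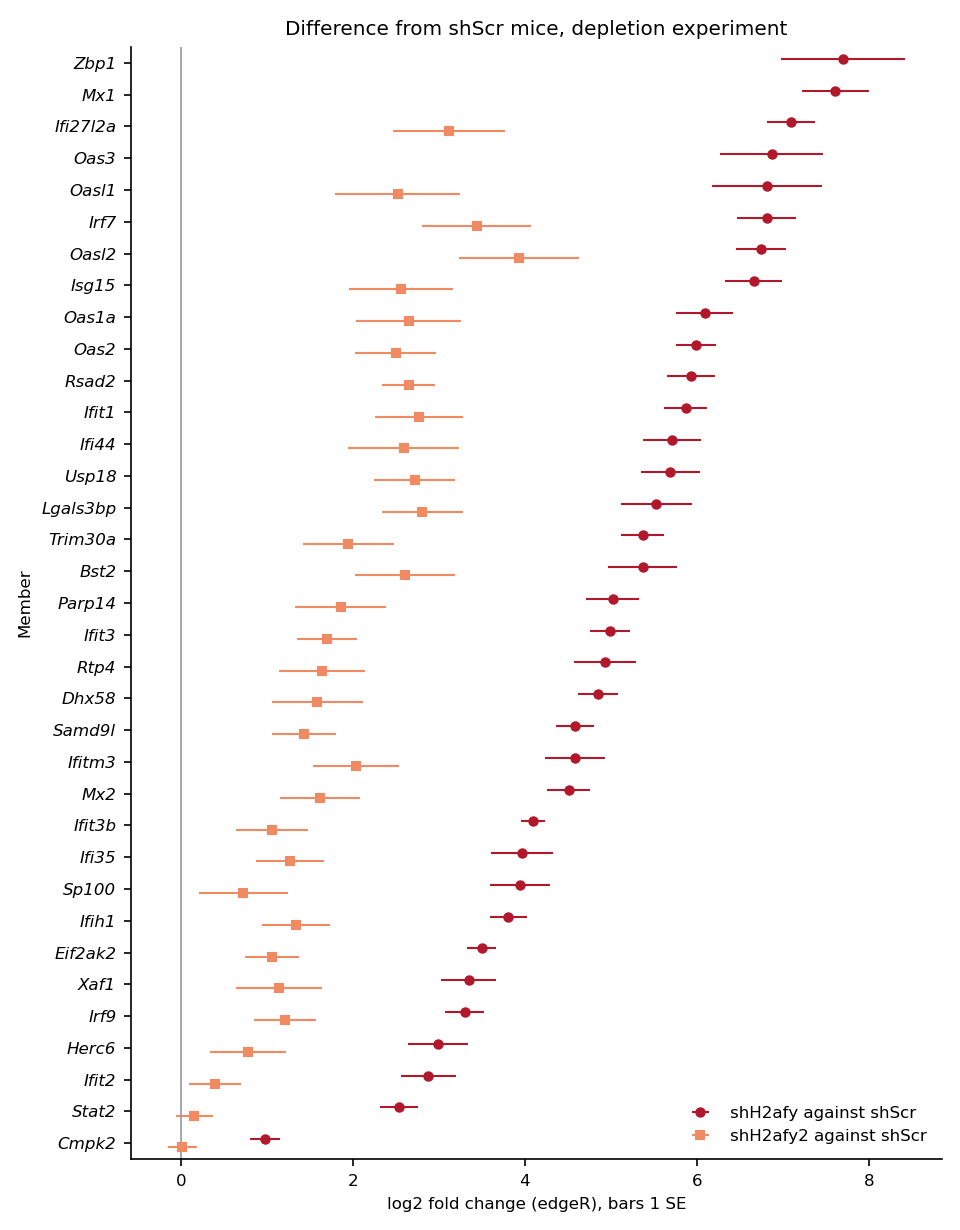
Log2 fold change by edgeR of each member (rows, ordered by the shH2afy value) in shH2afy against shScr mice (circles) and in shH2afy2 against shScr mice (squares), with bars of 1 SE, 3 mice in each group. The shH2afy values run from 0.98 for Cmpk2 to 7.70 for Zbp1, and the 32 shH2afy2 values from 0.02 for Cmpk2 to 3.93 for Oasl2. Oas3, Mx1 and Zbp1 have no square because they did not pass the edgeR filter.

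The direct comparison asked whether the effect of the shRNAs differed. In shH2afy against shH2afy2 mice 31 of 35 members were called higher (7.96% of 16294 genes) and 0 lower, with a median log2 fold change of 3.05 (0.00 over all genes). No member overlapped between the groups, where 25.4% of genes tested were higher without overlap. Oas3, Mx1 and Zbp1 passed the filter only through the shH2afy libraries, and of the 32 members that passed through the shH2afy2 libraries alone 29 were called. The largest differences were in Oasl1 (4.22, SE 0.34, adjusted p = 0.00154), Isg15 (4.04, SE 0.49, adjusted p = 0.00232) and Mx1 (3.98, SE 0.40, adjusted p = 0.00181). The smallest were in Cmpk2 (0.89, SE 0.19, adjusted p = 0.0116), Irf9 (2.02, SE 0.38, adjusted p = 0.00737) and Xaf1, a proapoptotic factor (2.14, SE 0.48, adjusted p = 0.0134). Besides Cmpk2 and Xaf1, Oasl2 (2.76, adjusted p = 0.0132) and Zbp1 (3.70, adjusted p = 0.0144) missed the threshold. The counts of calls turned on single mice, over all genes as over the members. The comparison called 1297 genes higher, but without shH2afy replicate 1 it called 2 genes and 0 members, and without shH2afy replicate 2 it called 470 genes and 14 members. Without shH2afy2 replicate 1 it called 129 genes and 4 members, and without shH2afy2 replicate 3 it called 61 genes and 12 members.

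Upstream of the members, almost no interferon RNA was counted. Of 21 interferon genes in the depletion table, 0 passed the filter. Ifnb1 had 0 counts in all 9 libraries, which allows up to 3 counts at 95% confidence. Ifna7, Ifna9, Ifna13, Ifnz and Ifnl2 had 1 count each over the 3 shH2afy mice and 0 in shScr. Ifng, the interferon of T and NK cells, had 19, 20 and 3 counts in the shH2afy mice, 1, 0 and 0 counts in the shH2afy2 mice and 0, 1 and 1 counts in the shScr mice. In shH2afy replicates 1 to 3, Ifng was at 1.28, 1.15 and 0.208 CPM, and the T and NK markers summed to 58.5, 87.2 and 8.17 CPM. Replicate 3 was thus lowest in both, but the order of replicates 1 and 2 differed. In shScr replicate 3, with 1 count of Ifng, those markers summed to 22.2 CPM. The source of Ifng was not tested.

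The rest of the pathway was taken from a list of receptors, kinases and factors, sensors and inhibitors that holds no member. In shH2afy against shScr, 4 of 6 receptors were called higher, among them Ifngr1, a chain of the interferon gamma receptor (log2 fold change 2.02, adjusted p = 0.00107), and Ifnar2 (1.40, adjusted p = 0.00128). Of 10 kinases and transcription factors, 6 were called, among them Irf8, a factor of myeloid cells (4.01, adjusted p = 0.000377), Stat3 (1.91, adjusted p = 0.000471) and Tyk2 (1.01, adjusted p = 0.00119). Of 12 sensors and adaptors tested, 11 were called, including the RNA sensors Ddx58 (3.48, adjusted p = 0.000105) and Tlr7 (3.26, adjusted p = 0.000153). Inhibitors rose too, in 5 of 7, such as Socs3, which blocks Janus kinases (5.37, adjusted p = 2e-04), and Ptpn6, a phosphatase of blood cells (4.38, adjusted p = 0.000376). None of these was called lower, and over all genes tested 10.5% were called higher and 1.2% lower. In shH2afy2 against shScr, edgeR called 0 genes of any of these classes, and DESeq2 called Nlrc5 (edgeR log2 fold change 3.22), the activator of MHC class I genes. In shH2afy against shH2afy2, 2 of 6 receptors, 3 of 10 kinases and factors, 9 of 12 sensors and adaptors and 2 of 7 inhibitors were called higher, beside 7.96% of all genes.

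The training experiment repeated the comparison of viruses in other mice, with deeper libraries counted over introns as well. In untrained mice, all 34 members were higher in libraries labelled shH2afy than in shScr libraries at the thresholds of that experiment (adjusted p under 0.05, fold change above 1.2), where 25.2% of 15799 genes were called higher. The median log2 fold change was 2.15, with a range from 0.62 to 3.45. No member overlapped, against 30.5% of genes tested that were higher without overlap. All 34 passed the filter through the shScr libraries. After training, 33 of 34 were called higher (22.8% of 15703 genes), with a median of 1.62 and no overlap in any member (30.1% of genes tested).

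Irf7 had 33.8, 40.8 and 31.7 CPM in trained and 29.9, 52.4 and 44.1 CPM in untrained mice labelled shH2afy, and 5.01, 12.1 and 9.43 CPM in trained and 5.64, 7.38 and 4.77 CPM in untrained shScr mice. The log2 fold change between viruses was 2.83 in untrained (SE 0.25, adjusted p = 0.000183) and 2.00 in trained mice (SE 0.31, adjusted p = 0.00357). Ifit1 was at 28.0, 38.7 and 36.2 CPM and 25.3, 38.4 and 37.5 CPM in trained and untrained mice labelled shH2afy, and at 9.00, 19.4 and 13.3 CPM and 8.32, 12.3 and 5.72 CPM in trained and untrained shScr mice. The viruses were apart in both genes, while trained and untrained mice of 1 virus overlapped. Oasl2 measured 77.4, 97.5 and 79.3 CPM (trained) and 68.0, 102 and 91.2 CPM (untrained) with the shH2afy label, and 15.0, 33.2 and 27.8 CPM (trained) and 17.1, 24.2 and 13.6 CPM (untrained) with shScr. Rsad2 had 19.2, 24.1 and 19.7 CPM (trained) and 15.7, 26.1 and 22.4 CPM (untrained) with the shH2afy label, against 3.48, 9.44 and 6.48 CPM (trained) and 4.66, 5.92 and 2.94 CPM (untrained) with shScr. Here too the viruses did not overlap, and trained and untrained mice of 1 virus did.

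Isg15 and Ifitm3 behaved alike. Isg15 had 8.91, 10.4 and 12.4 CPM in trained and 12.5, 11.5 and 10.4 CPM in untrained mice labelled shH2afy, and 0.866, 2.97 and 2.41 CPM in trained and 1.81, 1.87 and 0.969 CPM in untrained shScr mice. Ifitm3 stood at 35.9, 37.5 and 30.0 CPM and 26.0, 30.5 and 35.5 CPM in trained and untrained mice labelled shH2afy, against 5.67, 10.9 and 8.45 CPM and 7.04, 6.51 and 5.14 CPM in trained and untrained shScr mice. In untrained mice the largest differences between viruses were in Oasl1 (3.45, SE 0.25), Oas3 (3.32, SE 0.31) and Oas2 (3.16, SE 0.29), and the smallest in Cmpk2 (0.62, SE 0.08, adjusted p = 0.000774), Irf9 (1.37, SE 0.16) and Stat2 (1.57, SE 0.13). After training they were largest in Oas3 (2.40, SE 0.54), Oas2 (2.35, SE 0.32) and Isg15 (2.33, SE 0.42), and smallest in Cmpk2 (0.45, SE 0.17, adjusted p = 0.0712), the member not called, Irf9 (0.95, SE 0.17) and Ifit3b (1.07, SE 0.28).

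The members' CPM summed to 1410, 1580 and 1310 in trained and 1110, 1640 and 1580 in untrained mice labelled shH2afy, and to 293, 641 and 463 in trained and 326, 402 and 282 in untrained shScr mice. Markers of microglia and macrophages (10 of 10 counted) summed to 1280 to 1560 and 1190 to 1830 CPM in trained and untrained mice labelled shH2afy, and to 285 to 491 and 302 to 368 CPM in trained and untrained shScr mice. Markers of CA1 pyramidal neurons summed to 1460 to 1900, 1430 to 2050, 3450 to 3870 and 3450 to 3790 CPM in the same order of groups. In that order, those of monocytes and neutrophils (6 of 6 counted) summed to 186 to 367, 136 to 294, 7.84 to 51.6 and 11.7 to 17.4 CPM, those of T and NK cells (8 of 9 listed) to 22.5 to 34.3, 19.3 to 25.2, 2.95 to 12.3 and 4.44 to 6.5 CPM, and those of astrocytes (5 of 5) to 1920 to 2090, 1840 to 2060, 809 to 1180 and 822 to 993 CPM. Markers of B and plasma cells, with 5 of 7 listed, overlapped between the viruses. Their part in the members' values was not tested. Ifng was counted 131 times in untrained mice labelled shH2afy and 20 times in untrained shScr mice (log2 fold change 2.49, SE 0.69, adjusted p = 0.021), and Ifnb1 0 and 2 times. In untrained mice 6 of 6 receptors, 10 of 10 kinases and factors, 12 of 13 sensors and adaptors and 6 of 8 inhibitors of the pathway were called higher, and in trained mice 6, 7, 12 and 6 of them. Over all genes tested, 25.2% were called higher in untrained and 22.8% in trained mice.

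Training itself gave no call among the members. In shScr mice 0 of 34 members were called in trained against untrained mice (0% of 15424 genes), 3 reached an unadjusted p below 0.05, as did 1382 of all genes tested, and DESeq2 gave 0 calls as well. All 34 log2 fold changes were positive, with a median of 0.50 (0.00 over all genes), but no member was without overlap, where 8.12% of genes tested were higher without overlap. The largest were Oasl1, with 1.12, 3.84 and 2.04 CPM in trained against 1.07, 1.28 and 0.749 CPM in untrained shScr mice (1.17, SE 0.46, adjusted p = 0.527), Oas2 (0.80, SE 0.36) and Oas3 (0.77, SE 0.59), and the smallest Cmpk2 (0.09, SE 0.13), Eif2ak2 (0.20, SE 0.32) and Ifih1 (0.25, SE 0.31). The median was 0.16, with 27 positive values, without trained replicate 2, and 0.79 without trained replicate 1. Trained shScr replicate 2 was the highest of its group in 33 of 34 members and replicate 1 the lowest in 34, and the same mice had the most and the fewest microglial markers (491 and 285 CPM).

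In mice labelled shH2afy, training gave 0 calls of 34 (0% of 15866 genes), 1 unadjusted p under 0.05 and 0 calls by DESeq2. The median was -0.03, from -0.24 for Irf7 to 0.18 for Ifitm3, with 15 values above and 18 below 0. The balance turned on single mice, with 1 positive value without untrained replicate 1 (median -0.17), 5 without trained replicate 2 (median -0.10) and 24 without untrained replicate 2 (median 0.08). Bst2 alone did not overlap, at 16.5, 16.1 and 15.4 CPM in trained against 18.2, 18.1 and 18.6 CPM in untrained mice (-0.19, SE 0.07, adjusted p = 0.998), where 5% of genes tested were lower without overlap. Besides Irf7, the largest values were in Dhx58 (-0.22, SE 0.15) and Bst2, and the smallest in Lgals3bp (0.00, SE 0.18), Oas2 (0.01, SE 0.21) and Sp100 (0.02, SE 0.15), a nuclear body protein. The test of the difference between the training effects, the interaction of training and virus, called 0 of 34 members (0% of 15997 genes), with 2 at an unadjusted p under 0.05 (Oasl1 and Bst2) and 0 by DESeq2. All 34 estimates were negative, with a median of -0.54, but without trained shScr replicate 2 the median was -0.15 and 4 were positive. The most negative were Oasl1 (-1.28, SE 0.53), Bst2 (-0.96, SE 0.42) and Oas3 (-0.92, SE 0.65), each with an adjusted p of 1, and the least Cmpk2 (-0.17, SE 0.20), Xaf1 (-0.25, SE 0.36) and Ifitm3 (-0.25, SE 0.30).

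**Figure D3:**
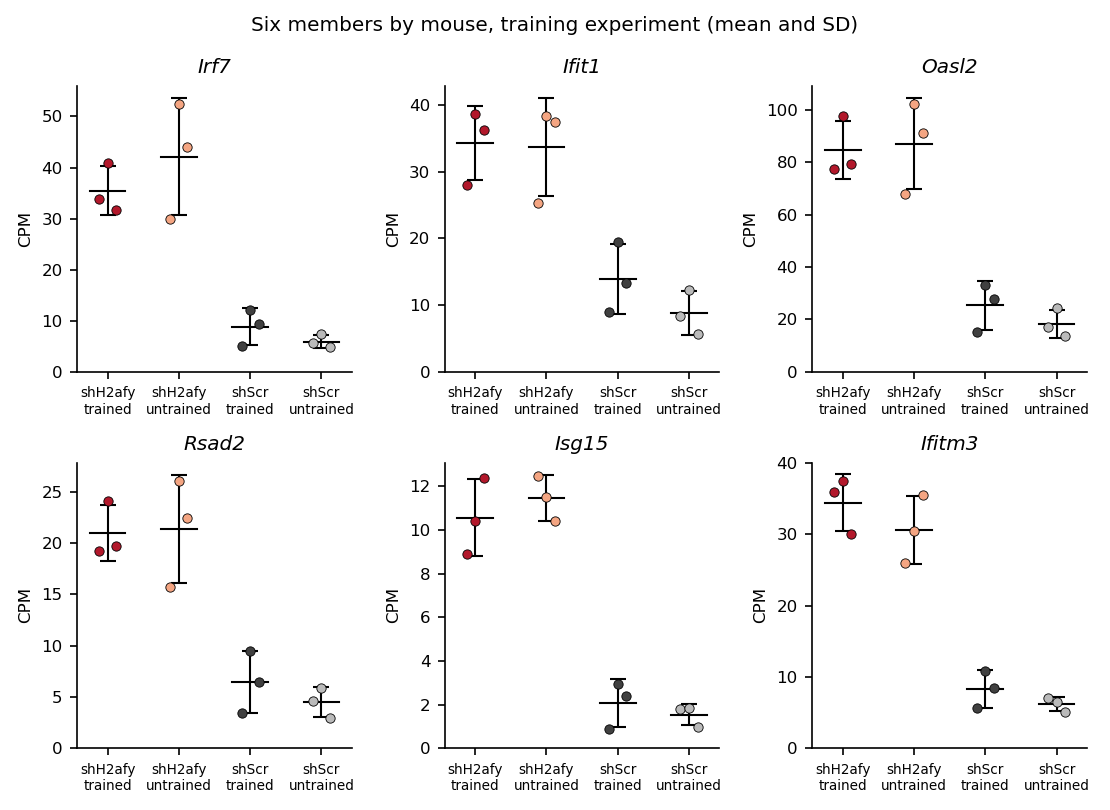
CPM of Irf7, Ifit1, Oasl2, Rsad2, Isg15 and Ifitm3 in each mouse of the training experiment, by virus label and training, with the mean and SD of the 3 mice in each group. Mice labelled shH2afy lie above shScr mice in each panel, for example 29.9 to 52.4 against 4.77 to 7.38 CPM of Irf7 in untrained mice, and trained points overlap untrained points within each virus.

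**Figure D4:**
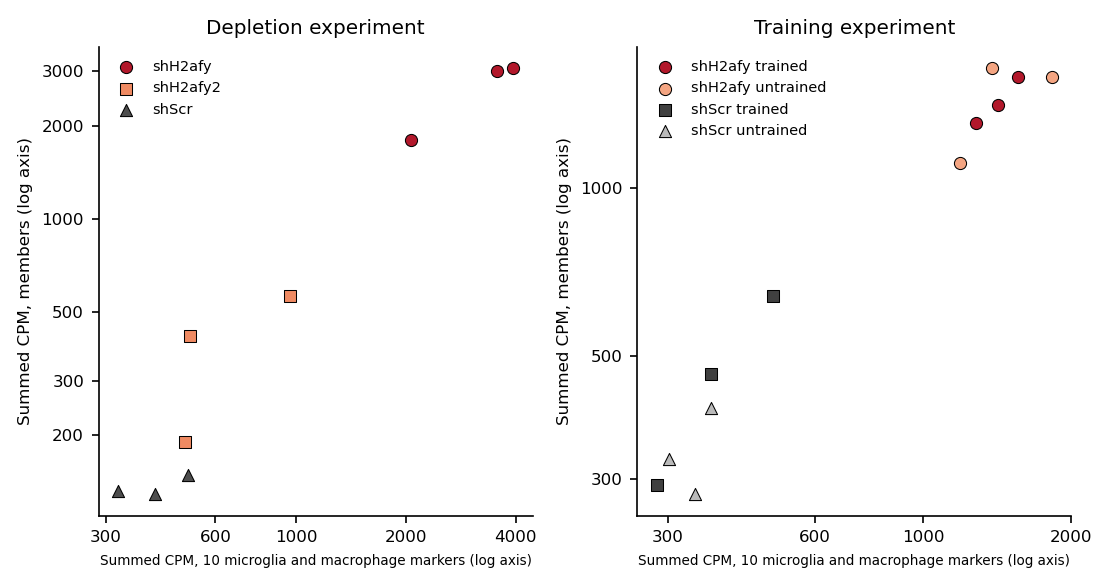
Summed CPM of the members against summed CPM of 10 microglia and macrophage markers in each mouse, on log axes, for the depletion experiment (left) and the training experiment (right). In the depletion experiment the shH2afy mice lie at 1800 to 3060 CPM of members and 2060 to 3930 CPM of markers, and the shScr mice at 129 to 149 and 325 to 505 CPM.

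Mice without virus, in a table counted and scaled on its own, had low levels of the members. Their CPM summed to 142 and 113 in intact trained mice and 130, 122 and 118 in intact untrained mice. Training called 0 of 31 members tested (0.0959% of 15641 genes were called higher), with a median log2 fold change of 0.18 (-0.01 over all genes) and 6 at an unadjusted p under 0.05, as were 3120 of all genes tested. That median was -0.04 without trained replicate 1 and 0.37 without trained replicate 2. Of the 31, 5 were higher and 5 lower in both trained mice than in all untrained mice, where 20.3% and 19.5% of genes tested were. The higher ones were Usp18, Ifit1, Irf9, Parp14 and Samd9l, and the lower ones Ifih1, Herc6, Cmpk2, Dhx58 and Ifit2.

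Among the members fixed for this set, Irf7 had 1.94 and 1.18 CPM in trained mice and 1.32, 1.30 and 1.01 CPM in untrained mice. Oasl2 had 3.41 and 1.89 CPM in trained and 1.84, 2.39 and 1.48 CPM in untrained mice. Both overlapped. Ifit1, with 3.03 and 1.85 CPM in trained against 1.64, 1.2 and 1.11 CPM in untrained mice, did not overlap (0.88, SE 0.26, adjusted p = 0.143). Rsad2 (1.21 and 1.12 CPM trained, 1.5, 0.858 and 1.05 CPM untrained), Isg15 (0.730 and 0.648 CPM trained, 0.635, 0.958 and 0.678 CPM untrained) and Ifitm3 (6.54 and 3.93 CPM trained, 4.33, 4.67 and 3.99 CPM untrained) overlapped.

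Irf9 was the member that DESeq2 called after training (362 of 14242 genes were called higher by DESeq2, 2.54%). It had 9.11 and 6.93 CPM in trained and 5.01, 4.83 and 4.33 CPM in untrained mice, a log2 fold change of 0.76 (SE 0.14), with an adjusted p of 0.0508 by edgeR and 0.000623 by DESeq2. With Irf9 among the 4 largest values stood Ifi27l2a (1.00, SE 0.67, adjusted p = 0.434), Usp18 (0.88, SE 0.34, adjusted p = 0.219) and Ifit1. Ifih1 was lower, at 4.25 and 3.16 CPM in trained and 6.62, 4.53 and 6.18 CPM in untrained mice (-0.64, SE 0.20, adjusted p = 0.156), and so were Herc6 (-0.53, SE 0.16, adjusted p = 0.139) and Cmpk2 (-0.31, SE 0.11, adjusted p = 0.179), none of them called. The smallest values were those of Rsad2 (0.02, SE 0.26), Sp100 (-0.04, SE 0.19) and Lgals3bp (0.05, SE 0.13). Microglial markers summed to 360 to 376 CPM in trained and 319 to 398 CPM in untrained mice, and no class of the pathway had a call.

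The ChIP-seq libraries show where the members lie relative to the deposited mH2A domains in mice without virus. Cover is the percent of bases from 2 kb before to 2 kb after the start of a gene that lie in a domain of a library. The members' promoters were covered more, on average, than those of all 21939 genes in each of the 30 libraries. In the paper the genes with the lowest expression had the most mH2A binding, and the members had low levels in intact mice. Genes of similar expression were not compared, so the excess cannot be called particular to the members. It was as small as 32.1 against 29.7% in trained mH2A2 replicate 1 at 1 h. In mH2A1 libraries the mean over members was 26.8 to 55.1%, against 14.6 to 26.0% over all genes, and in mH2A2 libraries 19.4 to 45.5%, against 11.9 to 36.2%. The median cover of the members in untrained mice was 30.7% at 30 min, 23.5% at 1 h (by the titles of the libraries) and 49.7% at 6 h with mH2A1, and 42.7% at 30 min and 0% at 1 h with mH2A2, while the median over all genes was 0% in each set. Neighbouring members can share domains, so the members are not independent.

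Cover differed sharply from member to member. A domain touched 11 members (31.4%) in each of the 10 untrained mH2A1 libraries, against 13.1% of all genes, and these were Oasl1, Oas1a, Oas2, Oas3, Bst2, Usp18, Ifi27l2a, Mx1, Mx2, Ifitm3 and Zbp1. Both untrained mH2A1 libraries of the 1 h set are mH2A1 by title but carry the name of mH2A2 in other label fields, and without them the count was 12 (34.3%, against 15.1% of all genes), Irf7 being added. Mx1 and Ifitm3 were covered over all bases in all 10. Ifi27l2a had a median cover of 100% (67.0 to 100%), Bst2 85.7% (11.4 to 100%) and Mx2 67.5% (12.3 to 100%). Oas2 and Oas3, named after their values were seen, were likewise covered in full in all 10 libraries. Herc6 and Samd9l, a regulator of translation, had no domain in any untrained mH2A1 library (5.71% of members, against 36.8% of all genes). The Ifit genes on chromosome 19 were covered little, with a median of 0% for each of the 4 genes and domains in 1 to 3 of the 10 libraries.

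With the mH2A2 antibody, 4 members (11.4%, against 6.56% of all genes) were touched in all 6 untrained libraries, Oas1a (median 84.0%), Oas2 (100%), Oas3 (100%) and Sp100 (75.0%). Another 6 (17.1%, against 31.4%) had no domain, and these were Herc6, Ifih1, Ifit2, Ifit3, Ifit3b and Rsad2. In the 3 untrained mice of the 30 min set, where both antibodies were used on the same mice, the median over members of the mean difference over mice, mH2A1 minus mH2A2 cover, was 8.33 percentage points (0 over all genes). It was 0 without mouse 3, and within each single mouse the median over members was 0. Cover by mH2A1 was greater in all 3 mice for 2 members and smaller for 5 (2.49% and 4.34% of all genes). Mx2 was covered more by mH2A1, by 82.3, 37.3 and 7.32 percentage points in mice 1 to 3. Trim30a, which restrains Toll-like receptor signalling, was covered more by mH2A2, by 90.2 percentage points in each mouse, and Isg15 too, by 50, 40.4 and 64.6 points.

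**Figure D5:**
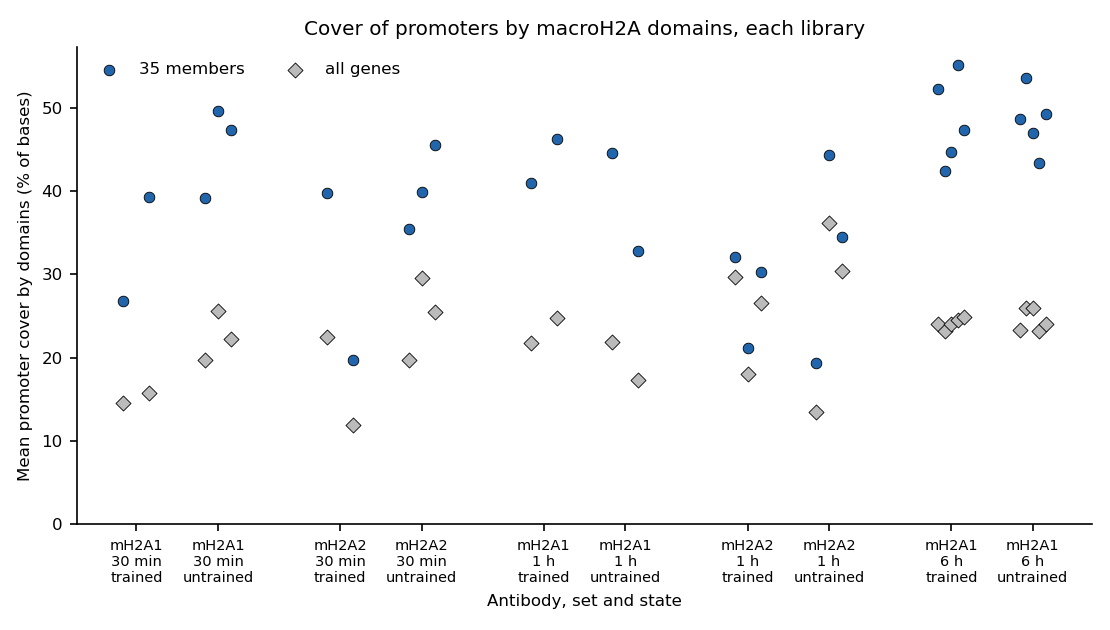
Mean cover of promoters (percent of bases within 2 kb of the start that lie in deposited domains) in each ChIP-seq library, over the 35 members (circles) and over all genes (diamonds), by antibody, set and training. Members lie above all genes in each library, from 26.8 to 55.1% against 14.6 to 26.0% with the mH2A1 antibody.

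The members with a domain in every untrained mH2A1 library had a median log2 fold change of 6.09 in shH2afy against shScr mice (range 4.51 to 7.70). It was 4.89 (0.98 to 6.81) in the 22 members with a domain in some libraries, and 3.78 in the 2 with none. This is a description of 35 points, and most of the first group (Oasl1, Oas1a, Oas2, Oas3, Usp18, Ifi27l2a, Mx1, Mx2 and Zbp1) are members that passed the filter only through the shH2afy libraries. The rest of that group were Bst2 (5.37) and Ifitm3 (4.58). In the group with a domain in some libraries, Isg15, Ifi44 and Dhx58 also passed only through the shH2afy libraries. A link between cover and change was not tested. Members with a response element core had a median of 5.37, those without 3.97, and the 9 without a matched promoter 5.69. Here too Oas1a, Oas3 and Isg15 among the members with a core, and Oas2, Usp18, Ifi27l2a, Dhx58, Mx1, Mx2 and Zbp1 among the unmatched, passed the filter only through the shH2afy libraries.

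Few members had cover that did not overlap between trained and untrained mice. With 2 trained and 3 untrained mice at 30 min, the smallest two-sided p that an exact permutation test allows is 0.2, with 2 against 2 it is 0.333, with 3 against 3 it is 0.1 and with 5 against 5 it is 0.00794, so counts without overlap are given. In the mH2A1 libraries of 30 min, 4 members were lower without overlap in trained mice (5.78% of all genes) and 0 higher (1.28%). Ifi27l2a had cover of 0% in both trained mice and 73.0, 67.0 and 100% in the untrained mice. Eif2ak2 was at 0 and 34.3% in trained and 75.7, 100 and 59.3% in untrained mice, Mx2 at 60.0 and 75.0% in trained and 100, 80.0 and 100% in untrained mice, and Bst2 at 46.4 and 46.4% in trained and 48.6, 91.4 and 100% in untrained mice. Without any 1 of the untrained libraries or trained replicate 2, the count of lower members was 7. Leaving out a library can only add genes without overlap, over all genes as over the members, so that count is no result about the members. The trained libraries held less in domains in all, 325.2 to 334.1 Mb against 368.9 to 416.0 Mb in the untrained ones.

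With mH2A2 at 30 min, Ifit3b was higher without overlap (45.8 to 100% in trained mice and 0% in all untrained mice, 1.46% of all genes), and Irf7, Mx2 and Parp14, an ADP-ribosyltransferase, were lower (4.88%). Parp14 had 0% in both trained mice and 91.4, 85.0 and 100% in untrained mice. Irf7 had 53.0 and 0% in trained and 58.0, 80.0 and 58.0% in untrained mice, and Mx2 0% in both trained and 17.7, 42.7 and 92.7% in untrained mice. Here too the trained libraries held less, 225.6 to 324.0 Mb against 326.9 to 406.8 Mb. With single libraries left out, the counts moved to between 2 and 5 higher and 3 and 8 lower members. Here too fewer libraries can only add genes without overlap, members or not.

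At 1 h, Usp18, Mx2, Parp14 and Cmpk2 had more mH2A1 cover in both trained than in both untrained libraries (8.92% of all genes), and Sp100 less (2.56%). Usp18 had 100% in both trained and 75.0 and 65.0% in untrained libraries, Mx2 47.3 and 100% in trained and 27.3 and 12.3% in untrained libraries, and Cmpk2 19.9 and 59.9% in trained and 0% in both untrained libraries. Sp100 had 0% in trained and 60.0 and 100% in untrained libraries. The untrained libraries are those with conflicting labels, so these values rest on the titles. Leaving out single libraries, which can only add genes without overlap, gave 4 to 12 higher and 1 to 5 lower members. Mx2 thus had less mH2A1 cover in trained mice at 30 min and more at 1 h, in sets made with different mH2A1 antibodies, and this difference between sets was not tested. With mH2A2 at 1 h, Oas1a was lower (33.0, 68.0 and 68.0% in trained and 73.0, 78.0 and 93.0% in untrained mice, exact permutation p = 0.1, the smallest possible, 1.14% of all genes), and 0 members were higher (0.752%). At 6 h, with 5 mice in each group, 0 members were higher (0.0775% of all genes) and 0 lower (0.0957%).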

How the data were processed

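RNA counts, as deposited, are raw counts per gene made by the authors with STAR alignment to mm10 and featureCounts; for the training experiment ribosomal RNA was depleted and introns were counted. ChIP domains, as deposited, were called per library against its input at an FDR under 0.05 (epic2 in the paper, SICER in the labels), and each list gives the caller's p-value, FDR and log2 of ChIP over input. The score column of the deposited lists and the read counts inside domains were not used. Which mouse gave which library was taken from titles.

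Counts were fitted by edgeR 4.0.16 (R 4.3.3, limma version 3.58.1): filterByExpr (least count 10, total 15), TMM, the quasi-likelihood test on the groups compared, and Benjamini-Hochberg adjustment over all genes tested, with DESeq2 1.42.0 as an alternative. An adjusted p under 0.01 with fold change above 2 (depletion), under 0.05 with fold change above 1.2 (training), under 0.05 (interaction) or under 0.01 (intact) made a call. The script was tested on simulated data. Cover, promoters and motifs were computed in Python 3.11.15 (NumPy 2.4.6, pandas 2.3.3, SciPy 1.17.1), and the figures were drawn with matplotlib 3.10.9. Sequences are from RefSeq.

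The members, the other pathway genes and the marker lists were chosen with earlier results of these data known. The text names members fixed by role, in each comparison the 3 with the largest and the 3 with the smallest absolute log2 fold change, and those called where 10 or fewer were. Other pathway genes named are among those with the smallest adjusted p of their class, and some results are not reported here. Deviations of same-numbered trained and untrained shScr mice correlated weakly (r = 0.17, 0.19 and 0.25), but no label pairs these mice and the main fit did not. The labels name separate mice. Counts carry no molecular identifiers, so the limit given for 0 counts covers counting error only.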

Additional observations from a re-analysis of the deposited data

How the results depend on the processing

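Calls in shH2afy against shScr (34 to 35 members), in untrained mice (34) and in trained mice (31 to 34) kept within 1.5 times under every alternative and with any 1 mouse left out. In shH2afy2 against shScr the count of 0 became 15 with DESeq2, 23 with no filter on low counts, 0 to 1 with single mice left out by edgeR and 6, 8, 9, 9, 11 and 23 with single mice left out by DESeq2, the last chosen after seeing the data. In shH2afy against shH2afy2 it ran from 0 to 32 with single mice left out. In intact mice DESeq2 called 1. With replicate number as a block, the counts were 34, 0 and 34 in the depletion comparisons and 34, 33, 0, 0, 0 and 0 in untrained, trained, training in shScr (median log2 0.45), training in shH2afy, interaction and intact mice, so that it added a net 3 calls in shH2afy against shH2afy2 and moved no other count. Apart from training in shScr, not all correlations of same-numbered mice exceeded 0.1, and no label pairs RNA-seq mice by number in any comparison. The causes of these changes were not tested.

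Cover without overlap at 30 min for mH2A1 was 1 member higher with a window of 1 kb and 2 with gene bodies (0 to 3 with single libraries left out), and 7 lower with gene bodies, 2 at an FDR under 0.001 and 1 by any overlap (5 to 7). For mH2A2 at 30 min it was 5 lower with gene bodies and 1 at the stricter FDR (3 to 8, and 2 to 5 higher). For mH2A1 at 1 h it was 4 lower with gene bodies (1 to 5) and 1 higher by any overlap (4 to 12), for mH2A2 at 1 h 0 lower by any overlap (1 to 3, and 0 to 2 higher), and at 6 h 0 to 1 lower. Shares of all genes under these settings are not reported here, so these counts are no result about the members. The median cover of members in untrained mice, 30.7% for mH2A1 at 30 min, was 11.4% with 1 kb, 0% at the stricter FDR and 63.8% as the share of promoters touched at all (30.0 to 38.7). For mH2A2 at 30 min 42.7% became 0% at the stricter FDR (30.2 to 50). For mH2A1 at 1 h 23.5% became 42.7% with gene bodies and 55.7% by any overlap (5.7 to 27.3), for mH2A2 at 1 h 45.7% by any overlap (18.0 to 32.9), and at 6 h 49.7% became 32.8% with 1 kb and 65.1% by any overlap (42.0 to 64.5). The same-mouse difference of 8.33 points was 4.03 with 1 kb, 2.11 with gene bodies, 0 at the stricter FDR and 9.52 by any overlap (0 to 6.32). With flanking bases the core was in 7 members. The count of members in every untrained mH2A1 library without the 1 h set was also chosen after seeing the data. Depth limits the members with under 10 counts in shScr.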
